A study of Mus musculus with 8 samples.

Results

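The 9 genes described here are used to recognise pancreatic duct cells and the duct-like state that acinar cells can enter after injury, and they were chosen by name from the 21434 genes of the expression table: the keratins Krt7, Krt8, Krt18 and Krt19, the transcription factor Sox9, the chloride channel Cftr, the mucin Muc1, and the secreted proteins Spp1 and Clu. All 9 were listed, and 8 of the 12820 genes that passed the filter on low counts were members, Cftr being the one that did not pass. RNA-seq was performed on homogenised pancreatic tissue of untreated mice at 18 weeks of age. The comparison asks which pancreatic transcripts differ when the transcriptional repressor Bach2 is missing, and here it is read for the duct genes. Bach2KO mice were homozygous for the Bach2tm1b(EUCOMM)Wtsi allele on the C57BL/6N background, a constitutive knockout in every cell of the body, and Bach2WT mice were wild type animals of the same strain. Each group held 4 mice, females as mice 1 and 2 and males as mice 3 and 4, with 1 library per mouse. As Bach2 is missing from immune cells and pancreatic cells alike, the design does not assign a difference to either.

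Pancreatic ducts carry the enzymes made by acinar cells to the gut and add a bicarbonate-rich fluid, which leaves the cells partly through the Cftr channel. Keratins form the intermediate filaments of epithelia as pairs of a type II and a type I protein. Krt8 and Krt18 are such a pair and are made in acinar as well as duct cells, whereas Krt7 and Krt19 are the type II and type I keratins that mark ducts. In acinar-to-ductal metaplasia, acinar cells lose their enzymes and take on duct features, and Sox9, Krt19 and Spp1 are among the genes used to recognise it.

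Of the 8 duct genes tested, 0 passed an adjusted p of 0.05 between Bach2KO and Bach2WT mice (edgeR quasi-likelihood test, Benjamini-Hochberg over all genes tested), where 0.0078% of all genes did. Krt7 was 1.48-fold higher in Bach2KO mice without overlap between the groups (unadjusted p = 0.0213, adjusted p = 0.627, edgeR), which made 1 of 8 members without overlap beside 4.49% of all genes and 1 of 8 at an unadjusted p under 0.05 beside 7.46%. That unadjusted call was lost without Bach2KO mouse 3, at an unadjusted p of 0.0602, or Bach2WT mouse 2, at 0.0510 (edgeR). Krt8, Krt18, Krt19, Sox9, Muc1, Spp1 and Clu overlapped between the groups. The median log2 fold change of the 8 genes was -0.03, beside 0.05 over all 12820 genes, with 4 members above 0 and 4 below. As Bach2KO over Bach2WT, the 95% interval of the fold difference was 0.83 to 1.42 in Krt19 and 0.58 to 1.38 in Sox9. It was 0.81 to 1.27 in Krt18, 0.68 to 1.23 in Clu, 0.73 to 1.22 in Krt8 and 0.62 to 1.12 in Muc1. The interval was 0.79 to 2.03 in Spp1 and 1.07 to 2.05 in Krt7. These intervals were not adjusted for the number of genes.

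Promoter sequences of Krt7, Krt8 and Krt18 are shown because they let the promoters of 3 keratin genes of chromosome 15 be read beside each other, those of the Krt8 and Krt18 pair and that of the duct keratin Krt7. Each line gives the 250 bases before and the 50 bases from the RefSeq start site (GRCm38.p6), written 5′ to 3′ on the strand of the gene. The windows are chr15:101412153-101412452 on the + strand for Krt7, chr15:102004293-102004592 on the - strand for Krt8 and chr15:102027966-102028265 on the + strand for Krt18. Capitals mark matches to the motifs searched.
Krt7: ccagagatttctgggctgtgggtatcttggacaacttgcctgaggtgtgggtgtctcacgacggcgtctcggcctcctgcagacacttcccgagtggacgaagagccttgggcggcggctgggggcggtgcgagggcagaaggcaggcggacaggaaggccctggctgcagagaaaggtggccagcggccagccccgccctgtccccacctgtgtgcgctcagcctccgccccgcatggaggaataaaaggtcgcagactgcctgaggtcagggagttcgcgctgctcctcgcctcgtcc
Krt8: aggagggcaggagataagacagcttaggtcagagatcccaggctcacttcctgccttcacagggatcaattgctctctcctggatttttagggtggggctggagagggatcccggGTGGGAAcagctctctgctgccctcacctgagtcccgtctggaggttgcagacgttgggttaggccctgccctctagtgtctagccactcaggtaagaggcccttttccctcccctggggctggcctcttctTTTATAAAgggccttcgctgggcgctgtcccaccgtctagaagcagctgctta
Krt18: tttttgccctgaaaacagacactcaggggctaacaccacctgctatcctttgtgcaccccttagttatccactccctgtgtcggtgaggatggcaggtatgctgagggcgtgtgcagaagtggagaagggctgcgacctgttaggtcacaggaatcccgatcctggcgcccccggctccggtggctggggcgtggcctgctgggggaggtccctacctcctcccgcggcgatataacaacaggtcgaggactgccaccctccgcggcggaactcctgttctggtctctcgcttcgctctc

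Both strands of these windows were searched for TGANTCA (the core bound by AP-1 and Bach proteins), GCTGAGTCA (a longer element that contains this core, bound by Bach and Maf dimers), GTGGGAA (RBPJ, the DNA-binding partner of Notch), CCATTGT (SOX proteins) and TATAAA (the TATA box). Krt8 held GTGGGAA at -135 from the start site, a sequence present in 6.38% of all 32851 windows, and TATAAA with the overlapping reverse match TTTATA next to the start site. The Krt7 and Krt18 windows held no match to the letters searched. TGANTCA was in no window of the 6 members with an entry, Krt7, Krt8, Krt18, Muc1, Spp1 and Cftr, and in 7.81% of all windows. GCTGAGTCA was in 0.454% and CCATTGT in 3.66% of all windows, and neither of them in a member. TATAAA, found in 13.6% of all windows, was also in the Muc1 window at -31 and in 1 of the 2 Spp1 windows at -211. Krt7 was rich in G and C (66.3%), as was Cftr (71.3%), beside a median of 52.7% over all windows. Krt19, Sox9 and Clu had no entry.

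Libraries held 72299745 to 172029360 counts assigned to genes. Bach2KO mouse 3 stood apart from the other 7 libraries on the first principal component of all genes tested (101.8 against -34.8 to 7.2, 23.3% of the variance). The values of Krt7, Muc1, Aqp1, Car2, Cdh5, Esam, Gcg and Myc are also given without it. The counts of Bach2 itself, 3 to 16 in Bach2KO and 4 to 31 in Bach2WT libraries, were too low for a check of the genotype. The sex labels matched the sex-linked genes, with 0 counts of Xist in the males and 0 of Ddx3y in the females. The 19 genes of the acinar list took 64.8 to 67.5% of the counts of each Bach2KO library and 64.6 to 69.8% of those of each Bach2WT library. The duct genes summed to 798 to 1209 CPM (counts per 1000000, scaled with TMM factors) in Bach2KO and to 820 to 1294 in Bach2WT mice. Most of this sum was Clu, with 614 to 962 CPM in Bach2KO and 595 to 1032 CPM in Bach2WT mice. In such bulk tissue, more cells of a type and more RNA per cell cannot be told apart.

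Levels of the members covered several orders of magnitude. Per length, as mean FPKM over all 8 libraries, Clu came first (229), followed by Krt18 (46.0), Muc1 (39.7), Krt8 (25.6), Krt19 (5.97), Spp1 (3.88), Sox9 (0.512), Krt7 (0.267) and Cftr (0.00426). Among all genes of the table in Bach2WT mice, this placed Clu at the 99.7th percentile, Krt19 at the 96.1st, Sox9 at the 80.2nd, Krt7 at the 68.3rd and Cftr at the 17.7th. The ranges over libraries did not overlap between Clu and Krt18, Krt8 and Krt19, Spp1 and Sox9, or Krt7 and Cftr. They overlapped between Krt18 and Muc1, where Krt18 was the higher in 7 of 8 libraries, and between Sox9 and Krt7, where Sox9 was the higher in 7 of 8. Muc1 and Krt8 overlapped in range with Muc1 higher in 8 of 8 libraries, as did Krt19 and Spp1 with Krt19 higher in 8 of 8. The gene model used for Krt7 (7049 bases) was longer than its longest coding transcript (4094 bases), and that of Clu (3437 bases) longer than 1810 bases, which lowers both FPKM values, but the order of the 9 genes was the same with either length.

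**Figure D1:**
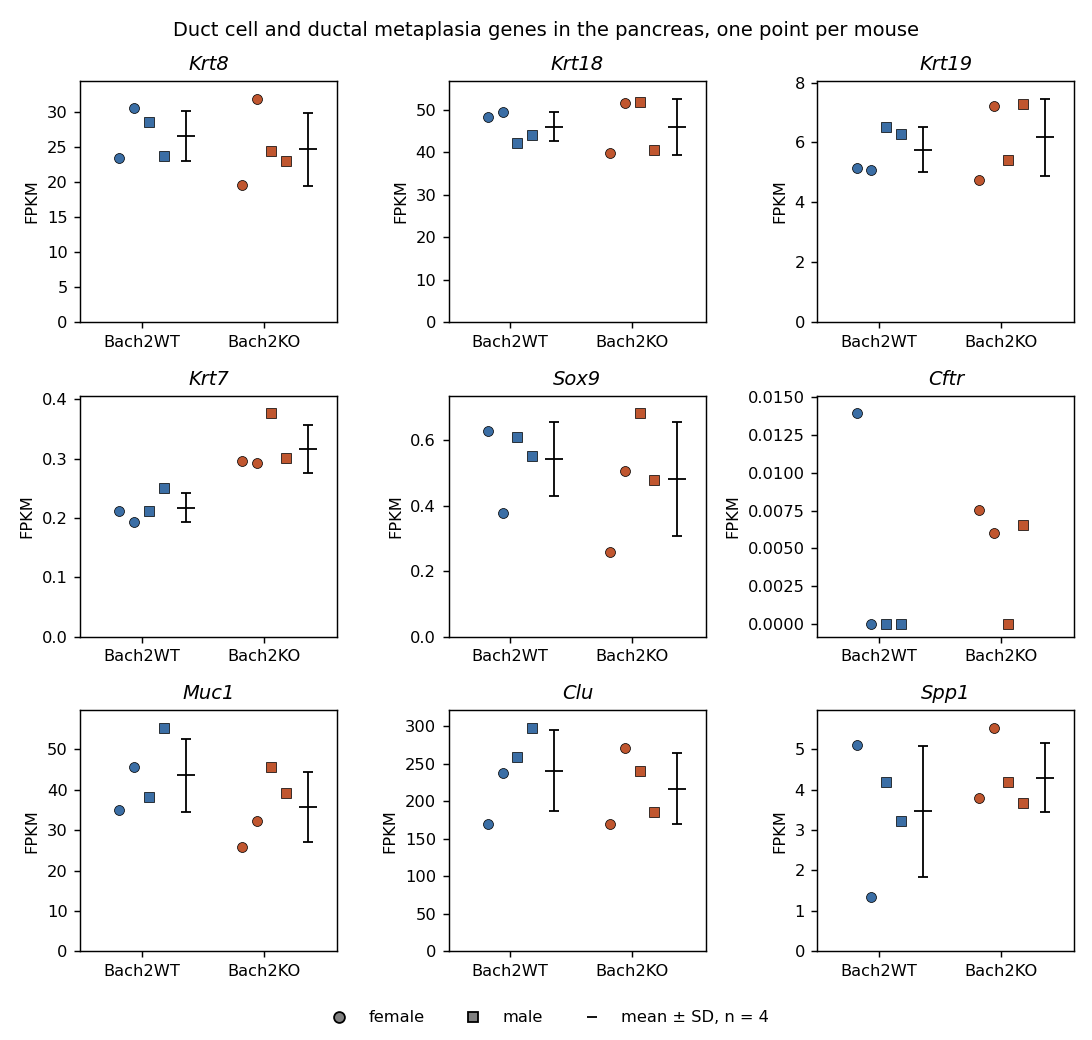
FPKM of the 9 duct genes in each mouse (y axis, from 0, with its own scale per gene), with Bach2WT in blue, Bach2KO in orange, circles for females and squares for males; black bars are mean ± SD of 4 mice and are left out for Cftr. Krt7 has all 4 Bach2KO points, 0.292 to 0.376, above the 4 Bach2WT points, 0.193 to 0.251, while the groups overlap for the other genes.

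Krt7, the type II keratin of simple ductal epithelia (ENSMUSG00000023039, chr15:101308924-101328194, + strand, mm39), was listed at 0.297, 0.292, 0.376 and 0.301 FPKM in Bach2KO mice 1 to 4. In Bach2WT mice 1 to 4 it was listed at 0.212, 0.193, 0.212 and 0.251 FPKM. Every Bach2KO mouse was above every Bach2WT mouse, and Bach2KO mouse 3 was the highest of all. The means were 0.316 ± 0.0399 FPKM in Bach2KO and 0.217 ± 0.0245 FPKM in Bach2WT mice (SD, n = 4 each), from 176 to 419 and 124 to 217 counts. The log2 fold change was 0.57 (SE 0.22, 95% interval 0.10 to 1.04), with an unadjusted p of 0.0213 and an adjusted p of 0.627 (edgeR). Without Bach2KO mouse 3 the log2 fold change of Krt7 was 0.46, and without Bach2WT mouse 2 it was 0.52. The size of the difference was alike in both sexes, 0.57 in females and 0.56 in males on the log2 scale.

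Krt8, the type II keratin shared by acinar and duct cells (ENSMUSG00000049382, chr15:101905133-101912917, - strand), stood at 19.5, 31.9, 24.4 and 22.9 FPKM in Bach2KO mice 1 to 4. Bach2WT mice 1 to 4 had 23.5, 30.5, 28.5 and 23.6 FPKM of it. The lowest and the highest mouse were both Bach2KO, with all Bach2WT values between them. Its log2 fold change was -0.08 (SE 0.17, 95% interval -0.45 to 0.29, adjusted p = 0.959, edgeR). Krt18, its type I partner (ENSMUSG00000023043, chr15:101936615-101940462, + strand), lies 23698 bases from Krt8 and is read from the opposite strand. Krt18 measured 39.9, 51.5, 51.9 and 40.5 FPKM in Bach2KO and 48.3, 49.6, 42.2 and 44.1 FPKM in Bach2WT mice 1 to 4. Bach2KO mice 1 and 4 were below and Bach2KO mice 2 and 3 above all Bach2WT mice. The log2 fold change of Krt18 was 0.02 (SE 0.15, 95% interval -0.30 to 0.34, adjusted p = 0.988, edgeR), and its sign turned with other scalings (-0.0031 with RLE factors and -0.0033 with DESeq2).

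Krt19, the type I keratin most used to mark pancreatic ducts (ENSMUSG00000020911, chr11:100031636-100039491, - strand), was at 4.73, 7.21, 5.42 and 7.30 FPKM in Bach2KO mice 1 to 4 and at 5.15, 5.08, 6.53 and 6.30 FPKM in Bach2WT mice 1 to 4. Bach2KO mouse 1 was the lowest and Bach2KO mouse 4 the highest of the 8. The log2 fold change was 0.12 (SE 0.18, 95% interval -0.27 to 0.51, adjusted p = 0.935, edgeR). Together the 4 member keratins took 96.3 to 97.7% of the counts of the 21 keratin genes listed. Krt18 alone took 44.9 to 53.9% of them and Krt8 34.6 to 41.3%, so the keratin RNA of this tissue was mainly that of the pair also made in acinar cells. Krt19 took 6.40 to 11.0% and Krt7 0.923 to 1.92%. Of the 4 other keratins tested, Krt23, an epithelial type I keratin, was at 1.20 ± 0.360 FPKM in Bach2KO and 1.90 ± 0.389 FPKM in Bach2WT mice (SD, n = 4 each). The FPKM ranges met at 1.56, in Bach2KO mouse 3 and Bach2WT mouse 1, and the CPM values did not overlap by a narrow margin (2.48 against 2.49). Krt23 was lower in Bach2KO mice at an unadjusted p under 0.05 (log2 fold change -0.65, unadjusted p = 0.0263, adjusted p = 0.627, edgeR), and its unadjusted p reached 0.0763 with a library left out. The remaining 3, Krt80, Krt10 and Krt4, had unadjusted p values of 0.668 to 0.877 in edgeR and adjusted values of 0.960 to 0.988.

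Sox9, the transcription factor that maintains duct and progenitor identity (ENSMUSG00000000567, chr11:112673050-112678586, + strand), was at 0.258, 0.506, 0.682 and 0.480 FPKM in Bach2KO mice 1 to 4. Bach2WT mice 1 to 4 had 0.630, 0.379, 0.609 and 0.552 FPKM. Bach2KO mouse 1 was the lowest and Bach2KO mouse 3 the highest, so that the Bach2KO group spanned the Bach2WT range. The log2 fold change was -0.16 (SE 0.29, 95% interval -0.78 to 0.47, adjusted p = 0.948, edgeR), and 0.05 without Bach2KO mouse 1. Cftr, the chloride and bicarbonate channel of the apical duct membrane (ENSMUSG00000041301, chr6:18170686-18322767, + strand), had 10, 4, 0 and 10 counts in Bach2KO mice 1 to 4 and 10, 0, 0 and 0 counts in Bach2WT mice 1 to 4. In all this came to 24 counts in Bach2KO and 10 in Bach2WT libraries, 1 Bach2KO and 3 Bach2WT libraries holding none. A count of 0 allows up to 0.0209 to 0.0432 CPM in these 4 libraries (3 counts each, counting error only), and Bach2WT mouse 1 had 0.111 CPM (exact 95% Poisson interval 0.0533 to 0.204). At this depth a difference in Cftr was not detectable.

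Muc1, the transmembrane mucin of the apical surface (ENSMUSG00000042784, chr3:89136364-89140688, + strand), had 25.9, 32.2, 45.7 and 39.2 FPKM in Bach2KO mice 1 to 4, and 35.1, 45.6, 38.3 and 55.3 FPKM in Bach2WT mice 1 to 4. The 2 lowest mice were the Bach2KO females and the highest was Bach2WT mouse 4. The log2 fold change was -0.26 (SE 0.20, 95% interval -0.68 to 0.16, adjusted p = 0.822, edgeR), and -0.41 without Bach2KO mouse 3. Clu, a secreted chaperone known to increase in injured epithelia (ENSMUSG00000022037, chr14:66205932-66218996, + strand), was listed at 169, 271, 240 and 186 FPKM in Bach2KO and 169, 238, 259 and 298 FPKM in Bach2WT mice 1 to 4. The lowest value of the groups was the same at this precision, 169 FPKM in mouse 1 of each. Clu had a log2 fold change of -0.13 (SE 0.20, 95% interval -0.56 to 0.30, adjusted p = 0.939, edgeR).

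Spp1, the secreted matrix protein osteopontin, made by duct cells and by activated macrophages (ENSMUSG00000029304, chr5:104582984-104588916, + strand), was at 3.80, 5.52, 4.20 and 3.68 FPKM in Bach2KO mice 1 to 4. In Bach2WT mice 1 to 4 it was at 5.10, 1.33, 4.18 and 3.22 FPKM. Bach2WT mouse 2 was the lowest by a wide margin, and the other 3 Bach2WT mice lay within or near the Bach2KO range. The log2 fold change of Spp1 was 0.34 (SE 0.32, 95% interval -0.34 to 1.02, adjusted p = 0.881, edgeR). It was 0.07 without Bach2WT mouse 2 and 0.59 without Bach2WT mouse 1. The 16 macrophage markers listed summed to 32.9 CPM in Bach2WT mouse 2, inside the range of the other Bach2WT mice (18.4 to 35.6 CPM). Single markers differed in that mouse, with the highest C1qa (17.2 FPKM) and the lowest Lyz2 (0.998 FPKM) of all mice. The part of macrophages in the Spp1 values was not tested.

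**Figure D2:**
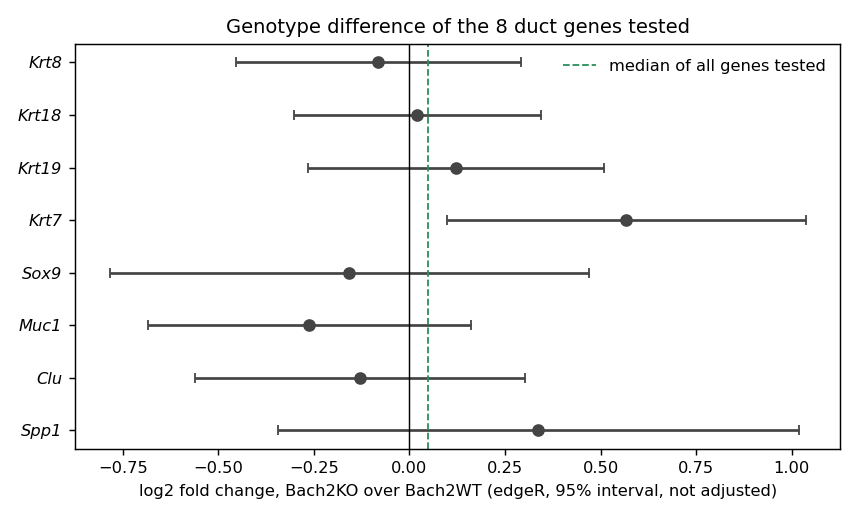
Log2 fold change of each of the 8 duct genes tested, Bach2KO over Bach2WT (x axis), with its 95% interval from the edgeR fit, not adjusted for the number of genes; the dashed line is the median of all 12820 genes, 0.05. The interval of Krt7, 0.10 to 1.04, lies above 0, and the intervals of the other 7 genes cross it.

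A sex by genotype term had an unadjusted p under 0.05 in 0 of the 8 members, beside 6.14% of all genes tested (edgeR). Clu had the widest gap, with a log2 fold change of 0.14 in females and -0.37 in males (difference -0.51, SE 0.40, adjusted p = 0.910, edgeR). With 2 mice per sex and group, these differences were measured with standard errors of 0.32 to 0.65 on the log2 scale.

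Ratios between members within a library do not depend on how libraries are scaled to each other, and 6 of the 7 chosen could be computed in every library, Cftr to Sox9 being left out for its zeros. Krt7 to Krt19, the duct keratins of type II and type I, was 0.0627, 0.0405, 0.0694 and 0.0412 in Bach2KO mice 1 to 4. In Bach2WT mice 1 to 4 it was 0.0413, 0.0379, 0.0325 and 0.0399. Bach2KO mice 1 and 3 were above all Bach2WT mice, while Bach2KO mice 2 and 4 lay at the upper end of the Bach2WT range. The log2 difference was 0.46 (p = 0.0857, two-sided exact permutation test, adjusted p = 0.514 over the 6 ratios), where the smallest p that 4 against 4 allows is 0.0286. With 1 added to each FPKM this difference was 0.04, since Krt7 lies below 1.

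Krt8 to Krt18 was 0.470 to 0.618 in Bach2KO and 0.486 to 0.676 in Bach2WT mice, with overlap between the groups (log2 difference -0.11, exact permutation p = 0.514, adjusted p = 0.651). Muc1 to Krt18 differed by -0.28 (exact permutation p = 0.229, adjusted p = 0.651) and Clu to Krt18 by -0.14 (exact permutation p = 0.543, adjusted p = 0.651) on the log2 scale. Clu to Krt18 varied less among Bach2KO mice (4.25 to 5.26) than among Bach2WT mice (3.50 to 6.74), a difference in spread that was not tested. Spp1 to Krt19 was 0.504 to 0.803 in Bach2KO and 0.263 to 0.991 in Bach2WT mice (log2 difference 0.37, exact permutation p = 0.543, adjusted p = 0.651). Krt19 to Krt18 was 0.104 to 0.180 in Bach2KO and 0.102 to 0.155 in Bach2WT mice (log2 difference 0.09, exact permutation p = 0.686, adjusted p = 0.686).

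**Figure D3:**
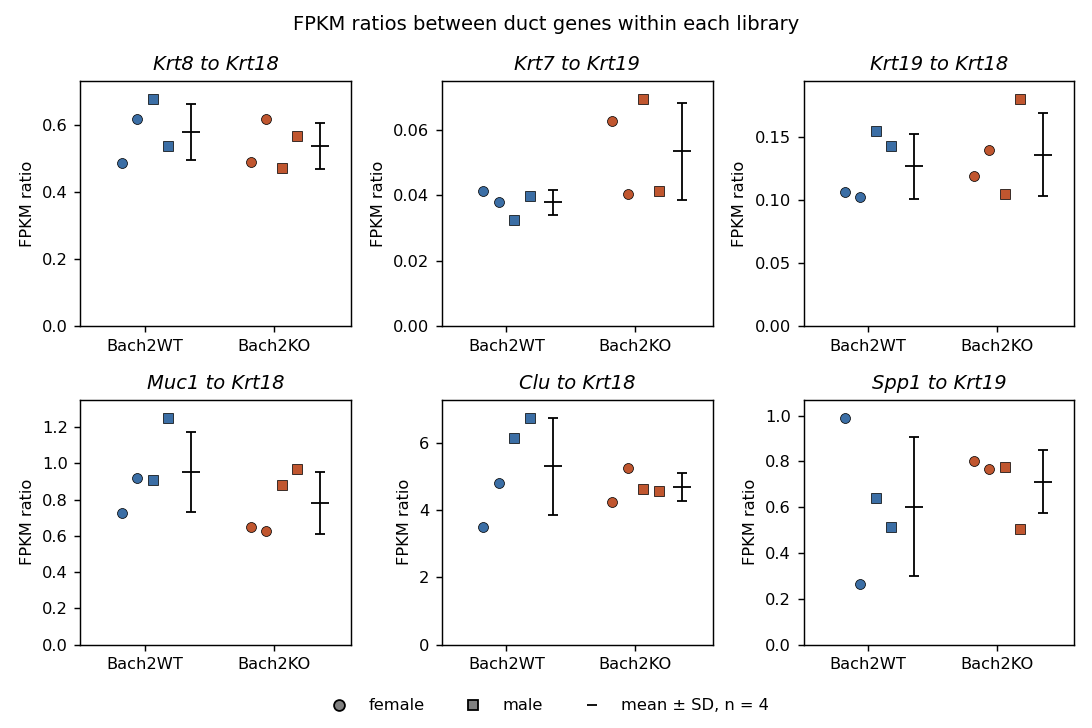
FPKM ratio of 6 pairs of duct genes within each library (y axis, from 0), with Bach2WT in blue, Bach2KO in orange, circles for females, squares for males and black bars for mean ± SD of 4 mice. Bach2KO mice 1 and 3 (0.0627 and 0.0694) lie above the Bach2WT range of Krt7 to Krt19, and the groups overlap in all 6 ratios.

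Across the 8 libraries the members did not move as one block. The highest Pearson correlations of log2 CPM between members, over 8 libraries that share genotype groups, were 0.61 between Krt8 and Clu, 0.58 between Muc1 and Clu and 0.56 between the paired Krt8 and Krt18. Krt7 and Krt19 had 0.18, and the lowest value was -0.46 between Spp1 and Muc1. Of all 12819 other genes, the 5 most like Krt19 were Ehf (0.94), an epithelial transcription factor, Gm13381 (0.94), Armcx3 (0.93), Mov10 (0.93) and Gm15545 (0.92). Those most like Sox9 were Zyg11a (0.95), Itgb2 (0.94), an integrin chain of leukocytes, and Phlda1 (0.94). Clu was most like Atg9b (0.98), Npm3 (0.94) and Gm8210 (0.93), and Spp1 most like Gtf2b (0.97), Marchf7 (0.97) and Tut7 (0.96). With 8 points and this many genes searched, such values describe these libraries only.

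Other genes of duct biology were read from lists that do not hold the members. The gene lists, here and below, were chosen with earlier results of these data known. Their counts and medians therefore describe the lists and are no test of them. Over all genes tested, 3.9% were higher and 3.56% lower in Bach2KO mice at an unadjusted p under 0.05, and the counts below are given for the same edgeR fit. At the adjusted threshold DESeq2 called 0.544% of all genes and edgeR with no filter on low counts 0.341%. Among the duct transcription factors and Notch genes, 0 of 15 tested had an unadjusted p under 0.05 (median log2 fold change 0.14). Sox4 and Nr0b2 had the smallest p values of the list, at log2 fold changes of 0.56 and -0.37 and adjusted p values of 0.802 and 0.818 (edgeR).

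In the list of ion and fluid secretion, 3 of 13 tested were higher in Bach2KO mice at an unadjusted p under 0.05 and 0 lower, beside 3.9% and 3.56% of all genes (median 0.10), and 0 passed the adjusted threshold in edgeR or DESeq2. Aqp1, a water channel of duct and endothelial cells, was at 2.62, 2.20, 5.19 and 2.60 FPKM in Bach2KO mice 1 to 4 and at 2.07, 1.47, 1.96 and 1.13 FPKM in Bach2WT mice 1 to 4. The groups did not overlap, and Bach2KO mouse 3 was the highest (log2 fold change 0.94, unadjusted p = 0.0045, adjusted p = 0.513, edgeR). Without that mouse the log2 fold change of Aqp1 was 0.59 (unadjusted p = 0.0194, edgeR). The 10 endothelial markers summed to 53.6 CPM in that mouse, 25.0 to 30.5 CPM in the other Bach2KO mice and 21.1 to 28.3 CPM in Bach2WT mice, and their part in the Aqp1 difference was not tested. Car2, carbonic anhydrase 2 of ducts and erythrocytes, had 24, 12, 38 and 24 counts in Bach2KO and 6, 2, 2 and 6 counts in Bach2WT mice 1 to 4. Its groups did not overlap (log2 fold change 2.37, unadjusted p = 0.0252, adjusted p = 0.627, edgeR), and without Bach2KO mouse 3 the log2 fold change was 1.63 and the unadjusted p 0.143 (edgeR). Car2 passed the filter on low counts only through its Bach2KO libraries, so its direction was partly set by the filter.

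In the list of duct surface, junction and secreted proteins, 4 of 14 tested were higher in Bach2KO mice at an unadjusted p under 0.05 and 0 lower, beside 3.9% and 3.56% of all genes (median 0.18). The adjusted threshold was passed by 0 of them in edgeR, by 3 in DESeq2 (Lgals3, Pigr and Epcam) and by 1 in edgeR with no filter on low counts (Lgals3). Epcam, the adhesion protein of epithelial cells, was at 1.71, 1.51, 1.91 and 2.11 FPKM in Bach2KO and at 1.13, 0.916, 1.20 and 0.943 FPKM in Bach2WT mice 1 to 4. All Bach2KO mice were above all Bach2WT mice (1.75-fold, unadjusted p = 0.0012, adjusted p = 0.352, edgeR), whereas Cdh1, the cadherin of the same epithelia, named after its values were seen, had a log2 fold change of 0.10 and an unadjusted p of 0.606 (edgeR). Lgals3, a galectin of ducts and macrophages, was at 1.43 ± 0.926 FPKM in Bach2KO and 0.332 ± 0.125 FPKM in Bach2WT mice (SD, n = 4 each), without overlap (log2 fold change 2.11, adjusted p = 0.297, edgeR). The macrophage markers summed to 27.4 to 41.0 CPM in Bach2KO and 18.4 to 35.6 CPM in Bach2WT mice, with 3 of 16 higher in Bach2KO at an unadjusted p under 0.05 and 0 lower, and their part in the Lgals3 difference was not tested. Pigr, the receptor that carries immunoglobulin A across epithelia, and Cldn4, a claudin of duct tight junctions, were the other 2 (log2 fold changes 1.11 and 1.31, both named after their values were seen). With each library left out, that of Pigr was 0.91 to 1.23 and that of Cldn4 0.82 to 1.79, with unadjusted p values up to 0.0053 and 0.170 (edgeR).

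The list of metaplasia and injury genes had a median log2 fold change of 0.75, with 9 of 22 tested higher in Bach2KO mice at an unadjusted p under 0.05 and 2 lower, beside 3.9% and 3.56% of all genes. The adjusted threshold was passed by 0 of them in edgeR, by 3 genes of the list in DESeq2 (Mmp7, Nupr1 and Krt20) and by 3 in edgeR with no filter (Mmp7, Nupr1 and Reg3g). Krt20 had 24, 50, 0 and 10 counts in Bach2KO mice 1 to 4 and 0 in all Bach2WT mice. It did not pass the filter on low counts and was not tested in the main edgeR fit. Nupr1, a stress-induced chromatin protein, averaged 103 ± 14.7 FPKM in Bach2KO and 51.5 ± 13.7 FPKM in Bach2WT mice (SD, n = 4 each, log2 fold change 1.03), with no overlap (adjusted p = 0.266, edgeR). Mmp7, a matrix metalloproteinase found in metaplastic ducts, had 95, 10, 12 and 16 counts in Bach2KO mice 1 to 4 and 0 in all 4 Bach2WT mice, with an adjusted p of 0.340 in edgeR. In that fit Mmp7 passed the filter on low counts only through its Bach2KO libraries, so its direction was set by the filter. Against a floor of 3 counts per library its mean CPM was at least 7.89-fold higher, or at least 3.95-fold if both mates of a pair were counted. Bach2KO mouse 1 held most of these counts, and without it these bounds were 4.02-fold and 2.01-fold. The bounds allow for counting error in the Bach2WT zeros only. They leave out the spread among Bach2KO mice, whose mean was 0.237 ± 0.235 CPM (SD, n = 4). Tff2, a trefoil peptide, and Krt23 were the 2 lower genes (log2 fold changes -0.67 and -0.65), and Tff2 was named after its values were seen. Klf4, Lcn2, Cdkn1a, Myc, Reg3a, Reg3b and Reg3g were the other 7 higher genes, at log2 fold changes of 0.73 to 2.84, also named after their values were seen. Klf4, Lcn2 and Reg3g kept an unadjusted p under 0.05 with each library left out (up to 0.0136, 0.0204 and 0.0215 in edgeR), whereas the log2 fold change of Cdkn1a was 0.01 without Bach2KO mouse 1. Myc, Reg3a and Reg3b reached unadjusted p values of 0.126, 0.172 and 0.129 with a library left out (edgeR, without Bach2KO mouse 3 for Myc and Bach2KO mouse 4 for the Reg genes). Among the members, Krt7 passed the unadjusted threshold (unadjusted p = 0.0213, edgeR) and none passed the adjusted one. Sox9, Krt19, Clu and Spp1, which are used beside such genes to recognise metaplasia, passed neither. The 95% interval of Spp1 reached 2.03-fold, and Cftr was not tested.

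**Figure D4:**
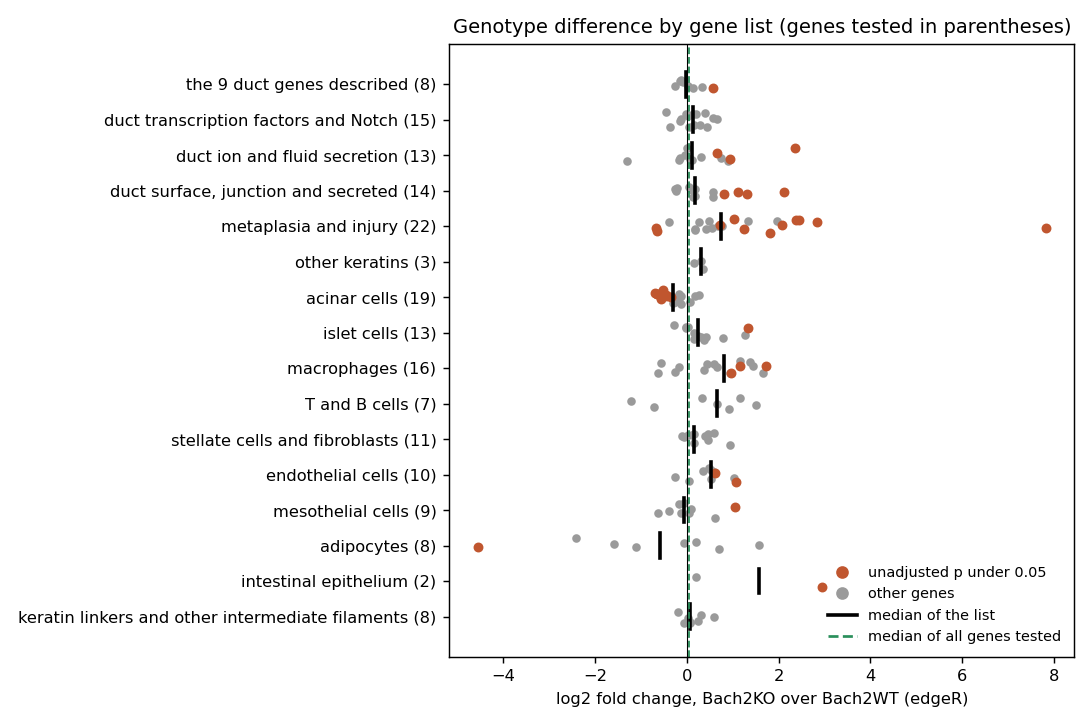
Log2 fold change of every tested gene, Bach2KO over Bach2WT (x axis), by gene list (y axis, number tested in parentheses), with orange points for an unadjusted p under 0.05, black bars for the list median and a dashed line for the median of all genes tested. The 9 duct genes described (8 tested) center on -0.03 and the transcription factors on 0.14, beside 0.75 for metaplasia and injury genes and -0.30 for acinar genes. The lists were chosen with earlier results of these data known.

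Of the 19 acinar genes, all tested, 8 were lower in Bach2KO mice at an unadjusted p under 0.05 and 0 higher, beside 3.56% and 3.9% of all genes (median -0.30). The adjusted threshold was passed by 0 in edgeR and by 3 in DESeq2 (Ctrl, Gatm and Cpa1, all lower). Ctrl, chymotrypsin-like protease (log2 fold change -0.66, adjusted p = 0.352), and Gatm, which makes a creatine precursor (-0.71, adjusted p = 0.361), had the lowest p values of that list in edgeR, each without overlap. The sum of the list depended on the scaling: in TMM-scaled CPM it was 550839 to 626303 in Bach2KO and 621788 to 835629 in Bach2WT mice, whereas the shares of the raw counts given above overlapped, with the lowest share in Bach2WT mouse 2. With library sizes computed without the acinar genes, Krt7 had a log2 fold change of 0.57 and an unadjusted p of 0.0215 (edgeR), as large as with them. TMM factors were used in this setting too, and the median over all genes hardly moved (0.0475 against 0.0481). The setting therefore cannot show whether the Krt7 difference depends on the scaling. Other cells that a piece of pancreas can hold were read in the same way. In edgeR 0 genes of these lists passed the adjusted threshold, while DESeq2 called Ctss (macrophages) and Krt20 (intestinal epithelium) and edgeR with no filter called Ctss and Plin1 (adipocytes). This Krt20 call is the same as that in the injury list, from the low counts given above. At an unadjusted p under 0.05, mesothelial cells, which also make Krt7, Krt8, Krt18 and Krt19, had 1 of 9 tested higher and 0 lower (median -0.07). The mesothelial markers summed to 13.5, 4.37, 10.4 and 10.8 CPM in Bach2KO and to 14.8, 4.79, 7.05 and 7.06 CPM in Bach2WT mice 1 to 4, and their part in the Krt7 difference was not tested. Msln was the 1 higher gene (log2 fold change 1.05, unadjusted p = 0.0124, adjusted p = 0.564, edgeR). Of the 9 mesothelial markers tested, Msln included, 4 had a log2 fold change above 0 and 5 below. Islet cells had 1 of 13 higher (Gcg, 1.33) and 0 lower. Without Bach2KO mouse 3 the log2 fold change of Gcg was 0.996 and its unadjusted p 0.134 (edgeR). Endothelial cells had 2 of 10 higher (Cdh5, 1.07, or 0.59 without Bach2KO mouse 3, and Esam, 0.60, or 0.40 without it) and 0 lower. Adipocytes had 0 of 8 higher and 1 lower (Plin1, -4.57). Intestinal epithelium had 1 of 2 higher (Lgals4, 2.94, or 1.75 without Bach2KO mouse 1) and 0 lower. Lgals4 passed the filter on low counts owing to its Bach2KO libraries and Plin1 owing to its Bach2WT libraries, which partly set their directions. T and B cells (7 tested), stellate cells and fibroblasts (11), keratin linkers and other intermediate filaments (8) and the other keratins not among the members or injury genes (3) had 0 in either direction.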

How the data were processed

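RNA was isolated from homogenised pancreas, and poly(A) libraries were read as 150-base pairs on a NovaSeq X Plus. The submitters' processing notes name fastp, HISAT2 2.2.1, featureCounts 2.0.6 and build mm39, and the options of these tools, strand and counting of mates included, are not given in the sources used here. The deposited table gives, for 21434 genes, counts as the authors obtained them, scaled counts (a signal on the scale of the counts) and FPKM. Each scaled count was the count divided by 1 constant per library, and the deposited FPKM values were the scaled counts per base of gene model times 1 constant, so they do not rest on each library's raw total. Other deposited columns held group means, the authors' fold changes and p-values, and gene annotation, of which only the gene name, position and length were used.

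From the counts, genes were filtered with filterByExpr, which left 12820, and fitted with edgeR 4.0.16 (R 4.3.3, TMM factors, quasi-likelihood test, genotype as the only term, all 8 libraries). A call needed a Benjamini-Hochberg adjusted p under 0.05 over all genes tested. CPM values are TMM-scaled. A sex by genotype term came from a second fit. Ratios of FPKM were tested on the log2 scale with no pseudocount by two-sided exact permutation (scipy 1.17.1). The procedure was tested on simulated data, where it recovered 60.5% of 200 genes changed by 2 on the log2 scale and called 3 others. Smaller changes were not simulated. Floors for counts of 0 are 3 counts. About 71 to 74% of low counts were even, so both mates of a pair may have been counted, in which case a floor is 6 counts and the Mmp7 bound is at least 3.95-fold. Counts of Gm671 (9 in all libraries), which overlaps Krt7, and of Gm36026 (4), which overlaps Krt8, were small beside 1816 and 47947. Krt8-ps, a pseudogene copy of Krt8, held 127 counts, and reads shared with it may have been split. Promoters are RefSeq windows of GRCm38.p6, another build than the table's, matched by symbol, and no coordinate was converted. Transcript lengths came from GENCODE M21.

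The members and gene lists were chosen with earlier results of these data known. The genes named were all members and, from each other list, those past the adjusted threshold or else the 2 with the smallest p, and for likeness the 5 or 3 genes with the highest correlation. The other settings tried were limma-trend 3.58.1, RLE factors, DESeq2 1.42.0, totals that leave out acinar genes, other filters, sex as a covariate, a replicate block, halved counts, each library left out, and for ratios a pseudocount of 1. The levels per longest coding transcript were added after seeing the data. Some items of the gene and motif lists are not reported here.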

Additional observations from a re-analysis of the deposited data

Results flagged for a closer look

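In 30 groups of 4 values, 3 held a mouse whose gap to the nearest other mouse was a large share of the group's range, where chance gives about 1 in 20. Krt7 in Bach2KO mouse 3 was at 0.376 FPKM, above the 0.292 to 0.301 FPKM of the other 3 Bach2KO mice. Cftr in Bach2WT mouse 1 was at 0.0140 FPKM, which is 10 counts, with 0 counts in the other 3 Bach2WT mice. The Spp1 to Krt19 ratio of Bach2KO mouse 4 was 0.504, below the 0.766 to 0.803 of the other 3 Bach2KO mice.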

How the results depend on the processing

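The number of members past an adjusted p of 0.05 was 0 in all 17 alternatives. The number at an unadjusted p was 0 to 1 when each library was left out, and the lost gene was Krt7, without Bach2KO mouse 3 or Bach2WT mouse 2. Over the 17 alternatives the log2 fold change of Krt7 was 0.46 to 0.64, with adjusted p values of 0.419 to 0.899. Leaving out libraries turned the sign of Krt8 (-0.23 to 0.01, 0.0092 without Bach2KO mouse 1), Krt18 (-0.056 to 0.079), Sox9 (-0.38 to 0.048) and the log2 ratio of Krt19 to Krt18 (-0.052 to 0.21), and RLE factors (-0.0031) and DESeq2 (-0.0033) turned that of Krt18. None of these was called in any setting, and the cause was not tested. For the ratio no call was possible with a library left out. The smallest p that the exact permutation test allows with 3 against 4 mice is 0.0571. The wider lists had 0 genes past the adjusted threshold, against 10 with DESeq2 (Mmp7, Lgals3, Nupr1, Ctrl, Ctss, Krt20, Gatm, Pigr, Cpa1 and Epcam) and 6 with no filter (Lgals3, Nupr1, Reg3g, Plin1, Ctss and Mmp7), where 80 and 73 of all genes were called against 1 (957 at an unadjusted p). At an unadjusted p, 35 of their genes passed in the main fit and 27 to 40 with each library left out. The count over all genes also moved in these fits. It was lowest without Bach2KO mouse 1 (690 of 12530) and highest without Bach2WT mouse 1 (1380 of 13632).

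The replicate numbers did not pair the mice (correlations of deviations 0.21, -0.03, -0.04 and -0.05, with 1 Bach2KO mouse closest to its own number). With the replicate block, 0 members passed the adjusted threshold and 1, Krt7 (log2 fold change 0.57, unadjusted p = 0.0342, adjusted p = 0.602, edgeR), the unadjusted one. The depth limits Cftr most, at 0 to 10 counts per library.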
